A study of Bos taurus with 6 samples.

Results

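The core circadian clock genes were examined in cultured bovine granulosa cells, the follicle cells that surround the oocyte and produce estradiol. The members were ARNTL, CLOCK, PER1, PER2, PER3, CRY1, CRY2, BHLHE40, BHLHE41 and CIART, which form the core feedback loop and its basic helix-loop-helix repressors. A probe was taken as a member where its gene symbol in the annotation of the array platform was on this list. That annotation named 9 of the 10 genes on 10 probes, out of 18010 genes with a symbol of their own, and PER2 had 2 probes. CIART is named on these arrays only in a list that the study drew up from genes that had changed on the same arrays, so its values are given as a description without a test.

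Granulosa cells of bovine follicles of 2 to 6 mm were frozen, thawed and seeded in medium with FSH (20 ng/mL) and R3 IGF1 (50 ng/mL). On day 2, the LY294002 group received LY294002 (50 μM), which inhibits PI3K upstream of AKT, and the control group received DMSO as vehicle. This medium lacked FSH and IGF1, most of it was replaced after 2 h by medium with both hormones, and RNA was collected on day 4. Each group comprised 3 samples with 1 Bovine Gene 1.0 ST array per sample. According to the methods, a biological replicate is a set of cells from 1 day of ovary collection, but the day of each array is not given, so the p-values measure the spread between these samples.

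The clock is a feedback loop of transcription. ARNTL, also called BMAL1, pairs with CLOCK, and the dimer binds E-box sequences and activates the PER and CRY genes, BHLHE40, BHLHE41, CIART, DBP and the REV-ERB genes NR1D1 and NR1D2. PER and CRY proteins return to the nucleus and inhibit the dimer, BHLHE40 and BHLHE41 (DEC1 and DEC2) compete for E-boxes, and CIART (CHRONO) represses the dimer directly. REV-ERB receptors repress and ROR receptors activate ARNTL transcription, so that ARNTL and the E-box genes peak at opposite times of day. Clock genes are rhythmic in granulosa cells of rodents, and fresh medium or cAMP can reset the clocks of cultured cells. RNA was collected at a single time, so a change in level and a shift in phase cannot be told apart.

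Signals are log2 values from RMA. The array medians lay between 4.98 and 5.01, and probes had a median SD of 0.11 within DMSO and of 0.10 within LY294002. Pearson's r across probes, which are not independent replicates, lay between 0.994 and 0.995 within groups and between 0.988 and 0.989 across groups. The words rose and fell are used of genes that passed limma at an adjusted p under 0.05 over all 24415 probes and differed by at least 1.4-fold, or 0.49 on the log2 scale (5.96% of all probes). Of the 12 granulosa cell markers, all were measured, with signals from 4.57 to 11.74. Their summed linear signal was 9238 to 9799 in DMSO and 9666 to 10010 in LY294002. INHBA made up 33.8% of this sum, and of the 12 markers 1 rose and 4 fell. The markers of oocytes and erythrocytes had signals from 1.82 to 4.46, which gives the range of genes that these cells should not express. Of the theca markers, the enzyme gene CYP17A1 (2.75 to 3.15), LHCGR and TCF21 lay in that range. The theca markers INSL3 (6.94 to 8.38), NR2F2 (6.90 to 7.19), PTCH1 (6.23 to 6.76) and HSD3B1 (11.98 to 12.20) lay above it.

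Of the 9 members named by the platform, 1 rose with LY294002, 2 fell and 6 did not pass, where 2.58% of all probes rose and 3.38% fell. The activator gene ARNTL rose, and the E-box repressor genes BHLHE40 and BHLHE41 fell. The 5 PER and CRY genes did not pass, and their groups overlapped in every case, whereas the groups of the other 4 members did not overlap, nor did those of 32.7% of all probes. CLOCK, the partner of ARNTL, was slightly lower. The median log2 difference was -0.0033 over the 9 members and 0.02 over all probes. The members were chosen with these results in view, and differences between members in their response were not tested.

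**Figure D1:**
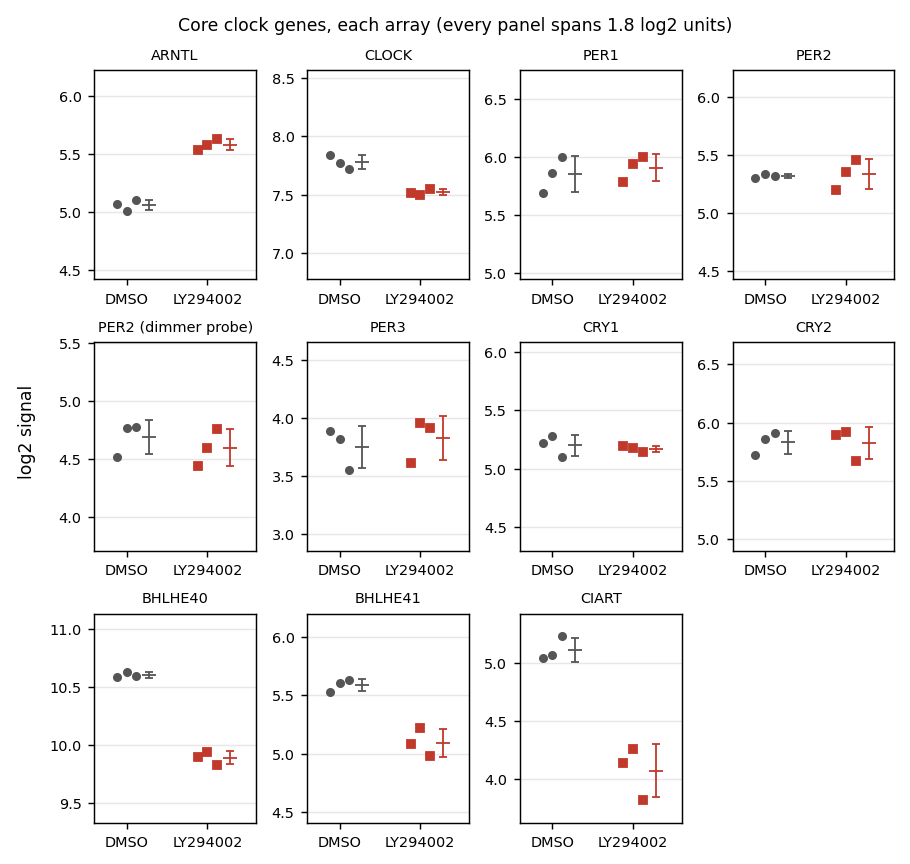
Log2 signal (vertical axis) of each core clock gene in the 3 DMSO arrays (grey circles) and the 3 LY294002 arrays (red squares), with the mean and SD of each group beside the points, and with an equal span on every vertical axis. ARNTL lies higher and CLOCK, BHLHE40, BHLHE41 and CIART lie lower on all 3 LY294002 arrays, while the groups overlap for PER1, PER2, PER3, CRY1 and CRY2.

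ARNTL, the activator that pairs with CLOCK, had signals of 5.07, 5.01 and 5.10 in DMSO and of 5.53, 5.58 and 5.63 in LY294002. The lowest LY294002 array lay 0.43 above the highest DMSO array, whereas the DMSO arrays spanned 0.09. ARNTL thus rose 1.43-fold, from 5.06 ± 0.05 to 5.58 ± 0.05 (SD, n = 3), a log2 difference of 0.52 (SE 0.06, 95% interval 0.37 to 0.67, adjusted p = 0.00394). The rise lay just above the fold threshold, and the interval includes values under it. Without a single array, the log2 difference stayed between 0.50 and 0.55 and the call was kept (adjusted p from 0.0154 to 0.0223).

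CLOCK, the partner of ARNTL in the dimer, had signals of 7.84, 7.77 and 7.72 in DMSO and of 7.51, 7.50 and 7.55 in LY294002. All 3 LY294002 arrays lay below the DMSO arrays, by a gap of 0.17. The log2 difference was -0.26 (SE 0.06, 95% interval -0.41 to -0.11, adjusted p = 0.0426), which is 1.19-fold. CLOCK therefore passed the p threshold but not the fold threshold, and it missed the p threshold too when any of the 6 arrays was left out (adjusted p from 0.0715 to 0.126) and with quantile normalization (adjusted p = 0.0503). At an adjusted p under 0.05 and any fold change, 7.21% of all probes were lower with LY294002. The paralogs that can take the place of these activators are NPAS2 for CLOCK and ARNTL2 for ARNTL. Neither passed, with log2 differences of -0.17 (SE 0.09, adjusted p = 0.262) for NPAS2 and of -0.08 (SE 0.15, adjusted p = 0.792) for ARNTL2, whose signal of 3.76 to 4.32 lay in the range of the oocyte and erythrocyte markers.

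The PER and CRY genes encode the proteins that shut off the dimer at the end of each cycle. PER1, which also responds quickly to cAMP and serum, had signals of 5.69, 5.86 and 6.00 in DMSO and of 5.78, 5.94 and 6.00 in LY294002. The log2 difference was 0.06 (95% interval -0.19 to 0.30, adjusted p = 0.787), smaller than the span of the DMSO arrays. PER2 had signals of 5.30, 5.34 and 5.32 in DMSO and of 5.20, 5.35 and 5.46 in LY294002 on its brighter probe. The LY294002 arrays thus surrounded the DMSO arrays, and the log2 difference was 0.02 (95% interval -0.18 to 0.21, adjusted p = 0.924). The dimmer PER2 probe gave 4.52, 4.77 and 4.78 in DMSO and 4.44, 4.60 and 4.76 in LY294002, with a log2 difference of -0.09 (95% interval -0.36 to 0.18, adjusted p = 0.676). The probes of PER2 differed in sign, and both intervals include 0.

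PER3, the member of the family that is least needed for rhythm in mice, had dim signals of 3.89, 3.82 and 3.55 in DMSO and of 3.61, 3.96 and 3.91 in LY294002. These values lie within the range of the oocyte and erythrocyte markers. The log2 difference of PER3 was 0.07 (95% interval -0.24 to 0.38, adjusted p = 0.781). CRY1, a strong repressor of the dimer, had signals of 5.22, 5.28 and 5.10 in DMSO and of 5.19, 5.18 and 5.14 in LY294002. All 3 LY294002 values of CRY1 fell inside the DMSO range, with a log2 difference of -0.03 (95% interval -0.20 to 0.14, adjusted p = 0.838). CRY2 had signals of 5.72, 5.86 and 5.91 in DMSO and of 5.89, 5.92 and 5.67 in LY294002, with a log2 difference of -0.0033 (95% interval -0.23 to 0.22, adjusted p = 0.987).

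None of the 5 PER and CRY genes passed the test of limma, 0 had an unadjusted p under 0.05, as 27.5% of all probes did, and 0 passed without moderation of the variances. The intervals of all 5 lay within 1.4-fold in either direction, as did those of 66.1% of all probes. On the scale of these signals, the 95% intervals, made with moderated variances, hold no change as large as 1.4-fold for PER1, PER2, PER3, CRY1 or CRY2. Smaller changes lie inside them, and intervals without moderation are not given. For PER3 the interval says less, since its signals of 3.55 to 3.96 lay in the range of the oocyte and erythrocyte markers. At such signals an array can understate a difference.

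BHLHE40, a repressor that also responds to hypoxia and growth factors, had high signals of 10.58, 10.63 and 10.59 in DMSO and of 9.90, 9.94 and 9.83 in LY294002. The groups were 0.64 apart, while the DMSO arrays spanned 0.05. BHLHE40 fell 1.64-fold, from 10.60 ± 0.03 to 9.89 ± 0.06 (SD, n = 3), a log2 difference of -0.71 (SE 0.06, 95% interval -0.86 to -0.56, adjusted p = 0.00135). Its interval lies wholly past the fold threshold.

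BHLHE41, the paralog of BHLHE40, had signals of 5.53, 5.61 and 5.63 in DMSO and of 5.08, 5.22 and 4.98 in LY294002. The highest LY294002 array lay 0.31 below the lowest DMSO array. BHLHE41 fell 1.41-fold, a log2 difference of -0.50 (SE 0.08, 95% interval -0.69 to -0.30, adjusted p = 0.0115). It dropped under 1.4-fold when replicate 3 of DMSO was left out (-0.48, adjusted p = 0.0444) and when replicate 3 of LY294002 was (-0.44, adjusted p = 0.0399), which leaves 1 member that fell, BHLHE40.

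CIART, a repressor that binds ARNTL, had signals of 5.04, 5.07 and 5.23 in DMSO and of 4.14, 4.26 and 3.82 in LY294002. Its log2 difference was -1.04, which is 2.06-fold, and the groups were 0.78 apart. CIART was named through a list of genes that had changed on these arrays. Its difference is therefore not ranked against those of the other members. In LY294002 the signal of CIART reached the range of the oocyte and erythrocyte markers. At such signals an array can understate a difference.

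The other clock genes were taken from lists grouped by role, with 56 genes measured on a probe of their own. Of these 56 genes, 5 rose and 3 fell with LY294002, which is 8.93% and 5.36%, beside 2.58% and 3.38% of all probes. The median log2 difference was 0.04. NR1D1 shares its probe with THRA and was not assigned, and TEF, EP300 and KAT2B were not analysed here. These lists were also drawn up with results of the arrays known.

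Of the nuclear receptors that set ARNTL transcription, the 3 measured on a probe of their own did not pass. NR1D1 was not among them. NR1D2, which encodes the repressor REV-ERB beta, had signals of 8.51, 8.45 and 8.33 in DMSO and of 8.32, 8.33 and 8.33 in LY294002, a log2 difference of -0.10 (SE 0.07, adjusted p = 0.402). The activator RORA had a log2 difference of -0.14 (SE 0.08, adjusted p = 0.317), and RORB, with signals of 2.50 to 2.94, one of 0.03 (adjusted p = 0.927). Of these 3 receptors, 0 passed with limma, 0 had an unadjusted p under 0.05 and 0 passed without moderation. Of all probes, 5.96% passed with limma and 27.5% had an unadjusted p under 0.05.

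Of 3 measured genes of D-box factors, 2 rose and 0 fell, where 2.58% of all probes rose and 3.38% fell. DBP, TEF and HLF activate D-box genes, PER genes among them, and NFIL3 represses them. NFIL3 had signals of 5.45, 5.42 and 5.22 in DMSO and of 6.16, 6.33 and 6.04 in LY294002, and so lay higher on all 3 LY294002 arrays. It rose 1.76-fold, a log2 difference of 0.81 (SE 0.10, adjusted p = 0.00461). HLF had signals of 4.77, 4.89 and 4.94 in DMSO and of 5.55, 5.61 and 5.50 in LY294002. It rose 1.61-fold (log2 difference 0.69, SE 0.07, adjusted p = 0.00242). DBP, an E-box target whose RNA swings widely over the day in liver, had signals of 5.62, 5.76 and 5.80 in DMSO and of 5.56, 5.31 and 5.40 in LY294002. All 3 LY294002 values of DBP lay lower, but the log2 difference of -0.30 (SE 0.09, adjusted p = 0.0764) did not pass.

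Clock proteins are marked for decay by kinases and ubiquitin ligases. Of 9 kinase genes, 0 passed with limma and 0 without moderation. Before adjustment, 2 were higher and 2 lower with p under 0.05, where 13.7% of all probes were higher and 13.8% lower. CSNK1E, which encodes the casein kinase 1 epsilon that phosphorylates PER proteins, had a log2 difference of 0.38 (SE 0.15, adjusted p = 0.155) on its brighter probe and of 0.41 (SE 0.08, adjusted p = 0.0249, under 1.4-fold) on the other. GSK3B, a kinase that AKT inhibits, had log2 differences of 0.22 (adjusted p = 0.092), 0.23 (adjusted p = 0.0811) and 0.26 (adjusted p = 0.0478) on its 3 probes, all under 1.4-fold. Its paralog GSK3A had one of -0.20 (SE 0.07, adjusted p = 0.0974).

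Of 7 measured ubiquitin ligase and protease genes, 1 fell and 0 rose, where 3.38% of all probes fell and 2.58% rose. USP2, a protease that removes ubiquitin from clock proteins in mice, had signals of 5.24, 5.35 and 5.39 in DMSO and of 4.23, 4.84 and 4.52 in LY294002. It lay lower on all 3 LY294002 arrays, which spread widely (SD 0.31), and fell 1.74-fold (log2 difference -0.80, SE 0.15, adjusted p = 0.0199). The call was lost without moderation (adjusted p = 0.0776), without any of the 3 DMSO arrays (adjusted p from 0.0509 to 0.0684) and without LY294002 replicate 3 (adjusted p = 0.0683). FBXL21, a ligase of CRY proteins, had a log2 difference of 0.40 (SE 0.12, adjusted p = 0.0773). Its signals of 3.81 to 4.54 lay, apart from the highest, in the range of the oocyte and erythrocyte markers.

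Of 20 measured cofactors of the clock complex, 1 rose, 2 fell and 17 did not pass, where 2.58% of all probes rose and 3.38% fell. CIPC, which binds CLOCK and inhibits the dimer, had signals of 7.02, 6.86 and 7.0 in DMSO and of 6.55, 6.22 and 6.27 in LY294002. It fell 1.53-fold (log2 difference -0.61, SE 0.10, adjusted p = 0.0135), with the call lost without moderation (adjusted p = 0.0519) and without replicate 3 of DMSO or of LY294002 (adjusted p = 0.0507 and 0.0541). The ID proteins lack a DNA-binding region and bind basic helix-loop-helix factors. ID2, which dampens the activity of the dimer in mice, had signals of 8.37, 8.38 and 8.45 in DMSO and of 9.20, 9.34 and 9.30 in LY294002, a rise of 1.84-fold (log2 difference 0.88, SE 0.07, adjusted p = 0.00101).

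ID3 moved in the opposite direction, with signals of 8.38, 8.50 and 8.51 in DMSO and of 7.78, 7.99 and 7.89 in LY294002. It fell 1.49-fold (log2 difference -0.58, SE 0.08, adjusted p = 0.0064). Without replicate 3 of DMSO or of LY294002, ID3 alone of the 56 other clock genes fell, since USP2 and CIPC no longer passed. ID1 had a log2 difference of 0.24 (SE 0.09, adjusted p = 0.151). Both ID2 and ID3 have many partners outside the clock.

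**Figure D2:**
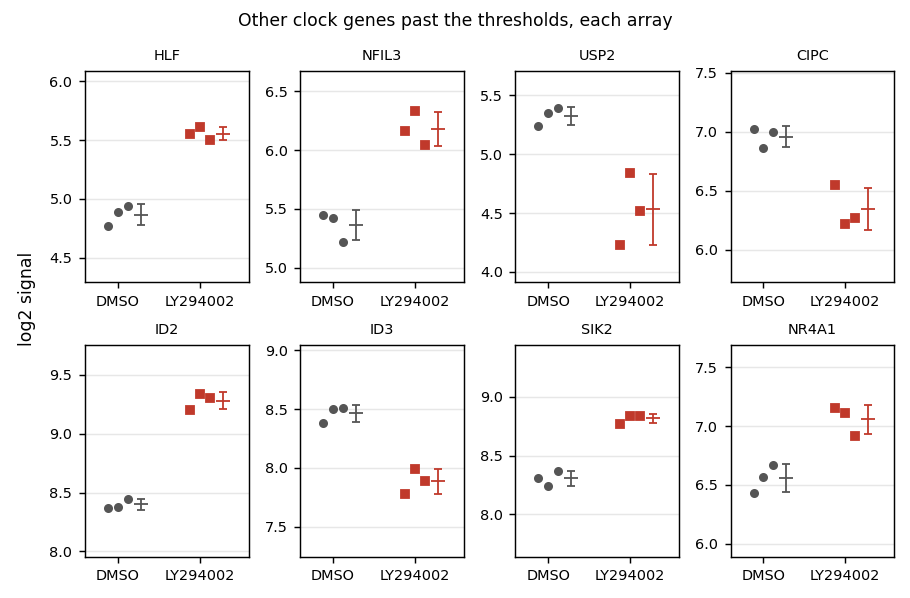
Log2 signal (vertical axis) in the 3 DMSO arrays (grey circles) and the 3 LY294002 arrays (red squares) of the 8 other clock genes that passed the thresholds, with the mean and SD of each group beside the points. HLF, NFIL3, ID2, SIK2 and NR4A1 lie higher and USP2, CIPC and ID3 lie lower on all 3 LY294002 arrays, with a wide spread of USP2 in LY294002.

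FSH raises cAMP in granulosa cells, and cAMP acts on PER1 through CREB1 and its CRTC coactivators, which the SIK kinases hold in the cytoplasm. The list of 12 genes for this input also holds immediate response genes such as NR4A1. Of these 12 genes, 2 rose, 0 fell and 10 did not pass, where 2.58% of all probes rose and 3.38% fell. SIK2 had signals of 8.31, 8.24 and 8.37 in DMSO and of 8.77, 8.84 and 8.84 in LY294002, and rose 1.42-fold (log2 difference 0.51, SE 0.06, adjusted p = 0.00473). It dropped under 1.4-fold without DMSO replicate 2 (0.48, adjusted p = 0.0223). NR4A1, an immediate response gene that CREB activates, had signals of 6.43, 6.57 and 6.67 in DMSO and of 7.15, 7.11 and 6.92 in LY294002.

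NR4A1 rose 1.42-fold (log2 difference 0.50, SE 0.10, adjusted p = 0.0192), but its call was lost without moderation (adjusted p = 0.0576). The same happened when either of replicates 1 and 2 was left out of DMSO or of LY294002 (adjusted p from 0.0545 to 0.0703). Without DMSO replicate 2, 3 of the 56 other clock genes rose, since SIK2 and NR4A1 no longer passed. CREB1 (0.38, SE 0.10, adjusted p = 0.0555) and FOS (0.47, SE 0.13, adjusted p = 0.0686) did not pass, and ATF1 was lower under the fold threshold (-0.32, SE 0.07, adjusted p = 0.0268). PER1 itself, the gene at the end of this input, had the overlapping values given above.

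In rodents, clock factors have been linked to CYP11A1, STAR, PTGS2, LHCGR and CYP19A1, which serve steroid synthesis and ovulation. The probe of STAR is shared with other genes and was not assigned. Of the 4 others, CYP11A1, which starts steroid synthesis from cholesterol, rose (log2 difference 0.59, SE 0.07, adjusted p = 0.00416). CYP19A1, which makes estrogens, fell (-1.97, SE 0.09, adjusted p = 0.000243), while PTGS2 and LHCGR did not pass. Of all probes, 2.58% rose and 3.38% fell. LHCGR was past 1.4-fold but missed the p threshold (log2 difference -0.53, SE 0.14, adjusted p = 0.0552). The signals of LHCGR, 2.74 to 3.65, lay in the range of the oocyte and erythrocyte markers. PTGS2, the prostaglandin synthase gene of ovulation, had signals of 7.70, 7.72 and 7.78 in DMSO and of 8.07, 8.10 and 8.02 in LY294002. Its log2 difference of 0.33 (SE 0.06, adjusted p = 0.0177) stayed under 1.4-fold.

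Markers of other cell types were compared beside these changes. Of all probes, 2.58% rose and 3.38% fell, and 13.7% were higher and 13.8% lower at an unadjusted p under 0.05 with limma. Of the 12 granulosa cell markers, 1 rose (NR5A2) and 4 fell (CYP19A1, AMH, AMHR2 and FOXL2). Of 7 fibroblast markers, with signals from 6.22 to 11.97, 2 rose (PDGFRA and COL1A2), while DCN was lower under the fold threshold (log2 difference -0.29, adjusted p = 0.0454). Before adjustment 3 were higher and 2 lower with p under 0.05. Their summed linear signal, of which LUM made up 48.8%, was 7500 to 7852 in DMSO and 7888 to 8439 in LY294002. Of 7 theca markers 1 fell (INSL3), and PTCH1 was higher under the fold threshold (log2 difference 0.37, adjusted p = 0.0278). Their sums of 5173 to 5243 and 4456 to 4504 came to 90.1% from HSD3B1, which granulosa cells express too and which did not pass (log2 difference -0.19, adjusted p = 0.0757). Without HSD3B1, the sums of the theca markers were 502 to 597 in DMSO and 380 to 416 in LY294002. INSL3 was the brightest of these remaining markers, with a mean of 8.22 in DMSO and 7.17 in LY294002. The lower sums therefore reflect INSL3 and do not describe the theca markers as a set. Of 7 endothelial markers 1 fell (CLDN5), with sums of 151 to 166 and 127 to 145. Of 8 leukocyte markers 0 passed with limma and 0 without moderation, 2 were lower at an unadjusted p under 0.05, and their sums overlapped (186 to 220 and 187 to 207). The part of these markers in the changes of clock genes was not tested. In RNA of whole cultures, fewer cells that express a gene and less RNA per cell cannot be told apart.

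Among all probes with a gene symbol of their own, those most like ARNTL over the 6 arrays were SLC25A27, DYNLL2 and PRKAG2, with Pearson's r of 0.999, 0.999 and 0.999. Those most like CIART were CDC14A, MRPL27 and MYBL2, with r of 0.998, 0.998 and 0.998. These values are a description, since the 6 arrays share 2 treatments and 789 probes had an r over 0.95 with ARNTL and 799 with CIART.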

How the data were processed

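Granulosa cell RNA of both treatments was hybridized by the authors to Bovine Gene 1.0 ST arrays and processed in the Transcriptome Analysis Console. The deposited values are log2 signals, which the authors made with RMA (background correction, normalization between arrays, summary per transcript cluster, called a probe here). The versions of RMA and of the array annotation and the genome build are not given in the sources used here. An array gives no count of molecules, and the number of arrays limits the precision.

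Probes were named from the platform table, in which 18457 of 24415 probes have 1 symbol, 688 several and 5270 none. CIART was named from the supplementary sheets of the study and kept out of all counts. Entrez gene IDs of the 9 other members matched the RefSeq table of ARS-UCD2.0. Of genes with several probes, the probe with the highest mean over all arrays was used.

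Groups were compared with limma 3.58.1 (lmFit, eBayes; R 4.3.3) in a model with treatment alone, and the Benjamini-Hochberg adjustment took in every probe. The thresholds are those of the methods, 0.05 for the adjusted p and 1.4-fold for the difference. Genes named are all members and, of each role list, the genes that passed or up to 3 with the lowest adjusted p, plus a few chosen after their values were seen (DBP, FBXL21, ID1, CREB1, FOS, ATF1, PTGS2, LHCGR, the dimmer probes of CSNK1E and GSK3B, and the cell type markers). The members and lists were chosen with earlier results of these data known.

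Alternatives were variances without moderation, a robust fit with an intensity trend, a block for the replicate number, other scalings, filters, array weights and thresholds, the averaged probes of a gene, and each array left out in turn.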

Additional observations from a re-analysis of the deposited data

How the results depend on the processing

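The calls of ARNTL and BHLHE40 were kept in 17 of 18 alternatives and lost only at a fold change of at least 2, and that of BHLHE41 was kept in 14. At a fold change of at least 2, 0 members rose and 0 fell, 0 other clock genes rose and 0 fell, and 268 probes passed in all, while 3249 passed at any fold change. At an adjusted p under 0.01, 1011 of all 24415 probes passed. Among the members, 1 rose (ARNTL) and 1 fell (BHLHE40, with BHLHE41 at an adjusted p of 0.0115). Of the other clock genes, 4 rose and 1 fell (ID3). Without moderation of the variances, 1084 probes passed, 1 member rose and 2 fell, and 4 other clock genes rose and 1 fell. Leaving out 1 array at a time, 1 member rose in every case, 1 to 2 members fell, 3 to 5 other clock genes rose and 1 to 3 fell. Between 1235 and 1372 probes passed in these fits. The correlation of deviations of same-numbered arrays was -0.04, -0.02 and -0.03, so no pairing by replicate number was seen. These values cannot exclude shared collection days, since each group has only 3 arrays and the day of each array is not given. With the replicate number as a block, 1 member rose and 2 fell as before, 4 other clock genes rose (NR4A1 was lost, adjusted p = 0.0758), 3 fell, CLOCK had an adjusted p of 0.125, and 1252 probes passed in place of 1454. Of the PER and CRY genes, 0 passed in any alternative, though each changed sign in 1 to 4 of them. Dim signals limit PER3, ARNTL2, RORB, FBXL21, LHCGR and the LY294002 values of CIART. The cause of these changes was not tested, apart from those that follow from a stricter or looser threshold.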
